A study of Mus musculus with 4 samples.

Results

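The genes described here encode the subunits of the transcription factor NF-Y (Nfya, Nfyb and Nfyc) and the nuclear factor I (NFI) proteins (Nfia, Nfib, Nfic and Nfix). They were taken by name from a RefSeq gene table of the mouse assembly GRCm38.p6 and make up 7 of its 21440 protein-coding genes with a known strand. Bulk ATAC-seq, in which the Tn5 transposase cuts and tags DNA that is not covered by nucleosomes, had been performed on 7-day mouse salivary gland organoids (mSGOs). These were grown from submandibular glands of non-irradiated female C57BL/6 mice. The 4 samples comprised 2 of passage 1 (P1) and 2 of passage 2 (P2), and within each passage the labels gave 1 mouse an age of 12 weeks and the other an age of 3 months. All were cultured in Matrigel in WRY medium, which holds Wnt3a- and R-spondin1-conditioned medium, Y27632, EGF, FGF2, insulin and dexamethasone. The authors deposited 1 list of open regions, taken here to be the consensus of all organoid samples that the methods describe, although neither its 69545 lines nor its 32011 distinct regions match the number of peaks given there. The list holds nothing per sample, so the depth and the spread between replicates are unknown, P1 and P2 could not be compared, and no test was possible. Each count is therefore a description, set beside the same count over all protein-coding genes where that is given. It tells where chromatin was open and not how much a gene was transcribed. In bulk tissue, a region open in few cells and a region weakly open in many cannot be told apart.

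NF-Y is a trimer. NF-YB and NF-YC pair through histone folds, and NF-YA joins the pair and reads the CCAAT box, a promoter element common in cell cycle, cholesterol synthesis and endoplasmic reticulum stress genes. NFI proteins are close relatives of each other that bind as dimers to the palindrome made of TTGGC and GCCAA, separated by 5 bases, and a single arm of it is bound more weakly. They are known for roles in the development of brain, lung and other epithelial organs, and NFIB also for its role in hair follicle stem cells. The sequence GCCAAT holds both a CCAAT box and an NFI arm, so the 2 motifs can share bases.

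Stretches from starts inside and outside open regions are printed here to show the motifs they hold. They come from RefSeq promoter windows of GRCm38.p6, which run from 250 bases before to 50 after a start. They are written 5′ to 3′ on the strand of the gene. Nfyc, on the minus strand of chromosome 4, had 5 CCAAT boxes in the window of its start 2. The 4 boxes of that window inside an open region are shown with 8 flanking bases on each side and the box in capitals, as CCAAT or, on the other strand, ATTGG. They lie at -99, -63, -25 and 14 bp from the start, counted to the first base of the box with negative positions upstream.
Nfyc start 2, chr4:120825296-120825316: tttctcccATTGGcggaaggc
Nfyc start 2, chr4:120825260-120825280: cgctcgtgATTGGtcggcggc
Nfyc start 2, chr4:120825222-120825242: ggcaccttATTGGtcacgccg
Nfyc start 2, chr4:120825183-120825203: atgaaggaATTGGcggctgtc

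Start 3 of Nfyc, further into the gene, had 3 CCAAT boxes, all inside another open region. The stretch from -250 to -80 bp holds 2 of them, in capitals.
Nfyc start 3, chr4:120815793-120815963: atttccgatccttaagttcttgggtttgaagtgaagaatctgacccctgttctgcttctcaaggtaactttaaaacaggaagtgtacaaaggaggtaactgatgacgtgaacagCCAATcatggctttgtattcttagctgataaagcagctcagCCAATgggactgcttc

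The open starts of Nfya and Nfyb held no CCAAT box. They held GC boxes, the binding sequence of SP1-like factors, which are in capitals in the next pair.
Nfya starts 1 and 2, chr17:48409828-48409849: ttcctaggGGGCGGggccaggc
Nfyb start 1, chr10:82764189-82764218: gctccgGGGCGGggccggGGGCGGaccggg

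For contrast, the start windows of Nfic and Nfia lay outside every open region. The Nfic stretch has 3 GC boxes in capitals, and the Nfia stretch a single CCAAT box, read on the other strand.
Nfic start 1, minus strand, chr10:81427202-81427423: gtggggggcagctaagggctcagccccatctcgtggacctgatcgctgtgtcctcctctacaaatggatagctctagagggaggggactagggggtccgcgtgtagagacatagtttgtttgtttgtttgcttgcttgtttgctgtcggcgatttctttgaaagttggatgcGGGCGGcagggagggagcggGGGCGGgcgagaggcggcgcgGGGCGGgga
Nfia start 1, plus strand, chr4:97581693-97581942: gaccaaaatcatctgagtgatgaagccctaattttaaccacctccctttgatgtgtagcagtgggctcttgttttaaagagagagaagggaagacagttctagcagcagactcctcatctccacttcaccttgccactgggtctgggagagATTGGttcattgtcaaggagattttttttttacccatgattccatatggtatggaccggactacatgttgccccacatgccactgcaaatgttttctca

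The label of the tissue was examined first, at the starts of each annotation that covers a gene. A region lay at the outermost 5′ end (its midpoint within 1 kb) or over a RefSeq start window of 8 of 11 salivary epithelium markers, against 41.4% of all protein-coding genes. These were Epcam and Cdh1, which encode cell adhesion proteins, the keratin genes Krt5, Krt14 and Krt8, the progenitor transcription factor Sox9, and Cd44 and Itgb1, which encode surface receptors. Krt7, Krt18 and Trp63 had none there (for Trp63, which has no RefSeq window here, at the outermost end and GENCODE starts), although Trp63, the basal cell regulator, had 7 regions within the gene. Of markers of other cells, the endothelial genes Pecam1, Cdh5 and Kdr (0 of 3) and the fibroblast genes Col1a1, Pdgfra and Pdgfrb (0 of 3) had no region at a start examined, whereas Cd68 among 3 immune genes had 1. The other immune genes, Ptprc and Csf1r, and the Schwann cell gene Sox10 had none. Of these, Csf1r and Pdgfrb could be examined at the outermost 5′ end only, and Pecam1, Cdh5, Col1a1 and Sox10 there and at GENCODE starts, since they have no RefSeq window here. Pecam1 had 3 regions within the gene and Cdh5 was the nearest gene to 7 distal regions. The highest folds at the outermost 5′ ends of the 8 epithelial markers ranged from 2.95 at Krt5 to 10.7 at Itgb1, and Cd68 had 4.58. All of the 8 except Itgb1 were below 7.90, the median of regions at protein-coding 5′ ends. The part of other cells in the regions of NF-Y and NFI genes was not tested.

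All NF-Y genes were open at a start. A region overlapped 6 of the 7 RefSeq start windows of the NF-Y genes, compared with 36.7% of 21263 such windows of protein-coding genes. The windows of Nfya starts 1 and 2 overlap each other and lie in the same region. By gene, 3 of 3 had an open RefSeq start, compared with 39.4% of the 17492 genes with a window. From the outermost 5′ end alone, the planned measure, 2 of 3 NF-Y genes had a region within 1 kb, compared with 38.3% of all protein-coding genes. The count by RefSeq start windows, here and for NFI genes below, was chosen after the data were seen. The gene that differed between the measures was Nfyc, whose outermost annotated end lies 5.84 kb from its nearest RefSeq start.

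Nfya (22.9 kb, chromosome 17), which encodes the CCAAT-reading subunit, had a single region, chr17:48409448-48410299. It was 852 bp wide with 3 summits, and its midpoint lay at -54 bp from the 5′ end. It had the highest IDR score of 1000, a measure of how reproducibly a peak was ranked between replicates, and a fold of 9.94 over the local background, with a q-value of 5.18e-78 as the authors' peak caller gave it. The median fold of the 8178 regions at protein-coding 5′ ends was 7.90 (quartiles 6.05 and 10.6), so this region stood at percentile 70.5 among them. It covered start windows 1 and 2 entirely and also lay at the 5′ end of Oard1, so the openness cannot be assigned to either gene alone. Start 3, a separate start downstream, was in no region. That window had 38.7% GC and held 1 CCAAT box and 1 TATA box, whereas the open windows had 64.3% and 65.7% GC. No region lay within the rest of Nfya, and none elsewhere was nearest to it.

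Nfyb (15.5 kb, chromosome 10), which encodes a histone-fold subunit, had the strongest start region of the NF-Y genes. The region chr10:82763790-82764314 had 4 summits, an IDR score of 1000 and a fold of 12.1, at percentile 84.2 of regions at protein-coding 5′ ends. Its midpoint lay at 99 bp, and it covered 74.3% of the start window, which had 71.3% GC and 3 GC boxes. A further 2 regions were upstream. The one at 31.2 kb, chr10:82795032-82795722, had a fold of 9.72 and an IDR score of 1000, and the one at 34.6 kb, chr10:82798513-82798898, a fold of 3.81 and an IDR score of 551, at percentile 1.31 of all regions.

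Nfyc (74.1 kb, chromosome 4), which encodes the partner of NF-YB, had 4 regions, all within the gene. The region at start 1, chr4:120825620-120825952, had a fold of 10.9, and the region at start 3, chr4:120815685-120815947, also a fold of 10.9, each with an IDR score of 1000. The region at start 2, chr4:120825050-120825422, where the CCAAT boxes cluster, was weaker, with a fold of 6.62 and an IDR score of 604. The midpoints of these 3 regions lay at -45, -103 and -27 bp from starts 1, 3 and 2. The 4th region, chr4:120799796-120800086, lay 31.6 kb from the outermost 5′ end, away from any start of the gene, with a fold of 8.99. Because distal regions were defined by the outermost 5′ end (over 1 kb from the end of any protein-coding gene and nearest to that of Nfyc), all 4 count as distal, although 3 of them cover a start.

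**Figure D1:**
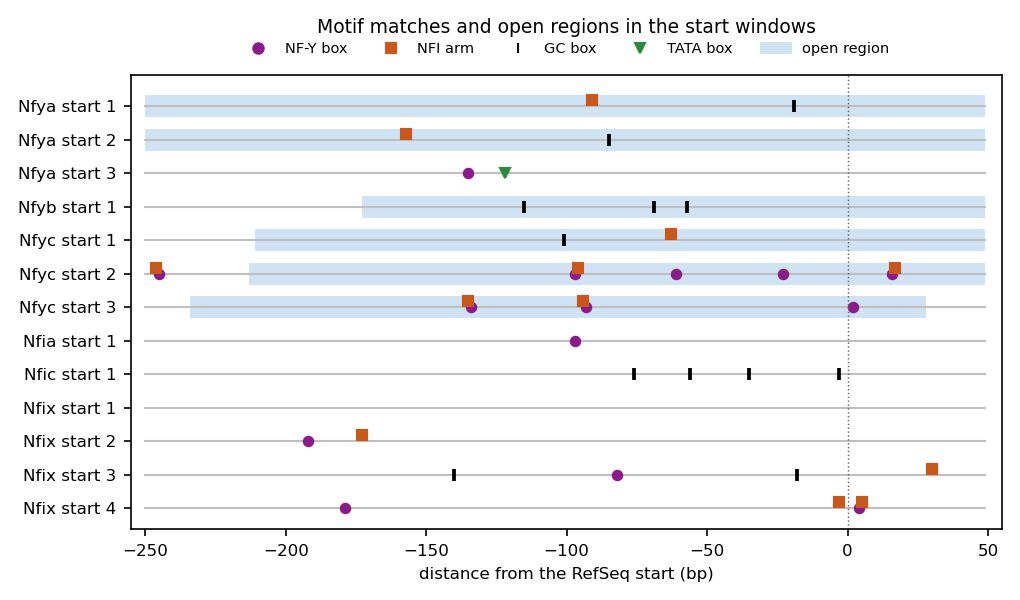
The 13 RefSeq start windows of NF-Y and NFI genes, with distance from the start in bp on the horizontal axis (negative is upstream) and 1 row per start. Shading marks the part of a window inside an open region, purple points CCAAT (NF-Y) boxes, orange squares NFI arms, black ticks GC boxes and the green triangle the TATA box, each at its middle. Shading covers 6 of 7 NF-Y windows and none of the 6 NFI windows, and CCAAT boxes gather at starts 2 and 3 of Nfyc.

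Motifs were counted by their letters on both strands, namely CCAAT for the NF-Y box, TTGGC for the NFI arm, GGGCGG for the GC box and TATAAA for the TATA box. A match is a run of letters and not a bound site. A CCAAT box was found in 44.1% of protein-coding windows with a region and in 34.8% of those without, and in 37.4% of all 32851 windows of the table. The NF-Y windows had 9 matches, 8 of them at starts 2 and 3 of Nfyc, and the NFI windows had 5. At least 1 box was in 3 of 7 NF-Y windows and in 4 of 6 NFI windows, so having a box did not set the families apart. Windows with 5 or more boxes, as at start 2 of Nfyc, made up 0.325% of protein-coding windows, and windows with 3 or more, 3.92%. Among those with a region, the shares were 0.783% and 7.64%. Start 2 had 72.0% GC and start 3 had 45.3%, so the boxes lay in windows of different composition. The region at start 3 had its strongest summit 19 bp from the nearer box, and the region at start 2 had its own 17 bp from the box downstream of the start. Of the 5 boxes at start 2, 3 also held an NFI arm, as did 2 of 3 boxes at start 3. An NFI arm was in 47.9% of protein-coding windows, 53.2% of those with a region and 44.8% of those without. The full NFI palindrome was in 0.0365% of all windows and in none of the 13 shown. GC boxes were in 70.1% of protein-coding windows with a region and 32.4% of those without.

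The NFI genes were less uniform, and their starts depended on the annotation. None of the 6 RefSeq start windows of Nfia, Nfic and Nfix overlapped a region, compared with 36.7% of protein-coding windows. Nfib had no such window to examine. From the outermost 5′ end, 1 of 4 NFI genes had a region within 1 kb, compared with 38.3% of all protein-coding genes and 43.1% of the 6525 genes at least as long as Nfic, the shortest NFI gene. That gene was Nfib, whose region had its midpoint at 947 bp, just inside the limit, while the region nearest to Nfic lay just outside it, 1.15 kb upstream. With a limit of 500 bp, or only regions with an IDR score of 1000, the count was 0 of 4 for NFI genes, and with a limit of 2 kb, or any overlap with the 1 kb window, it was 2 of 4. The count for NF-Y genes was 2 of 3 under each of these. The share of all protein-coding genes, 38.3%, is for the 1 kb limit with all regions. No share is given under the other settings, so those counts have no background.

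GENCODE, another annotation, lists further protein-coding transcript starts, and their distances to the regions were taken after the data were seen. A region midpoint lay within 1 kb of such a start in 2 of 4 NFI genes (Nfia and Nfib) and in 3 of 3 NF-Y genes, compared with 47.9% of the 17780 protein-coding genes for which this could be measured and 53.6% of the 5783 at least as long as Nfic. Of 29 NFI starts 3 had a region, of 26 NF-Y starts 19, and of all protein-coding starts 41.4%, with neighbouring starts often sharing a region. Nfic and Nfix had no region at any of their 12 GENCODE starts each. By gene, the NFI count was near the share of all genes, and by start it was below that of the long genes (36.9%).

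Nfia (541 kb, chromosome 4) had no region within 91.5 kb of its outermost 5′ end in the RefSeq table, and its only RefSeq start, 3.88 kb from that end, lay in a window with 44.7% GC and few CpG dinucleotides (0.134 of the number expected from its base composition). Protein-coding windows without a region had a median of 52.3% GC and 0.317 of the expected CpG, and windows with a region 61.7% and 0.806. The gene held 7 regions, the first of them 173 kb in, chr4:97751042-97751630, with a fold of 9.04. The next 2 stood at GENCODE starts, which lie 194.7 and 199.5 kb in. They were chr4:97772050-97772472, with a fold of 8.79 and an IDR score of 1000, and chr4:97777656-97777947, with a fold of 4.44. The remaining GENCODE start, 302.1 kb in, had none. The region 173 kb in lies upstream of all these GENCODE starts. The strongest within the gene lay 426 kb in, chr4:98003776-98004635, with 4 summits and a fold of 11.7. Nfia was the nearest gene to 12 distal regions, 6 within it (the 2 at GENCODE starts included) and 6 upstream, with folds from 4.44 to 16.5 and 7 of them at an IDR score of 1000. The strongest lay upstream. The region chr4:97418457-97419096, 159 kb away, had a fold of 16.5, at percentile 98.5 of all regions, and chr4:97465625-97466480, 112 kb away, had 5 summits and a fold of 13.0. The upstream region nearest to the gene was chr4:97486290-97486929, with a fold of 8.67.

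Nfib (217 kb, chromosome 4) had more regions than any other NF-Y or NFI gene. Its region at the 5′ end, chr4:82505649-82505959, was weak, with a fold of 4.37 and an IDR score of 595, at percentile 3.67 of regions at protein-coding 5′ ends. It lay at -25 bp from a GENCODE start, and the other GENCODE start of Nfib, 199 kb upstream of the outermost 5′ end, had no region. Within the gene were 8 regions, this one included, of which 3 had an IDR score of 1000. The strongest was chr4:82435801-82436153, 70.8 kb in, with a fold of 10.5, followed by chr4:82446932-82447633, 59.5 kb in, with 5 summits and a fold of 9.87. Nfib was nearest to 16 distal regions, 7 within the gene, 3 upstream and 6 beyond its 3′ end, with folds from 5.40 to 15.6 and 8 of them at an IDR score of 1000. The strongest lay beyond the 3′ end, chr4:82166099-82166561 at 340 kb from the 5′ end with a fold of 15.6, and chr4:82283513-82283944 at 223 kb with a fold of 15.3. The 3 upstream regions, 6.56 to 47.1 kb away, had folds of 6.27, 5.40 and 5.40. They fall within the longer GENCODE gene, which has its start 199 kb upstream.

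Nfic (35.7 kb, chromosome 10) had no region within the gene as RefSeq gives it. The single region nearest to it, chr10:81432907-81433222, lay 1.15 kb before the outermost 5′ end and 5.89 kb before its RefSeq start, with 1 summit, a fold of 7.97 and an IDR score of 1000. A GENCODE start of Nfic lies further upstream, at -23.72 kb, so this region falls within the longer GENCODE gene. The start window had 63.0% GC, 0.9 of the expected CpG and 4 GC boxes, a composition like that of the open windows, yet it was in no region. Nfix (96.5 kb, chromosome 8) had 4 RefSeq starts, none open, in windows of 44.3% to 57.3% GC. Its 4 regions were all modest. The pair within the gene, chr8:84786416-84786904 and chr8:84728475-84728797, had folds of 6.34 and 6.16, the pair upstream, chr8:84810945-84811240 and chr8:84815643-84816013, had folds of 5.26 and 4.79, and none had an IDR score of 1000.

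**Figure D2:**
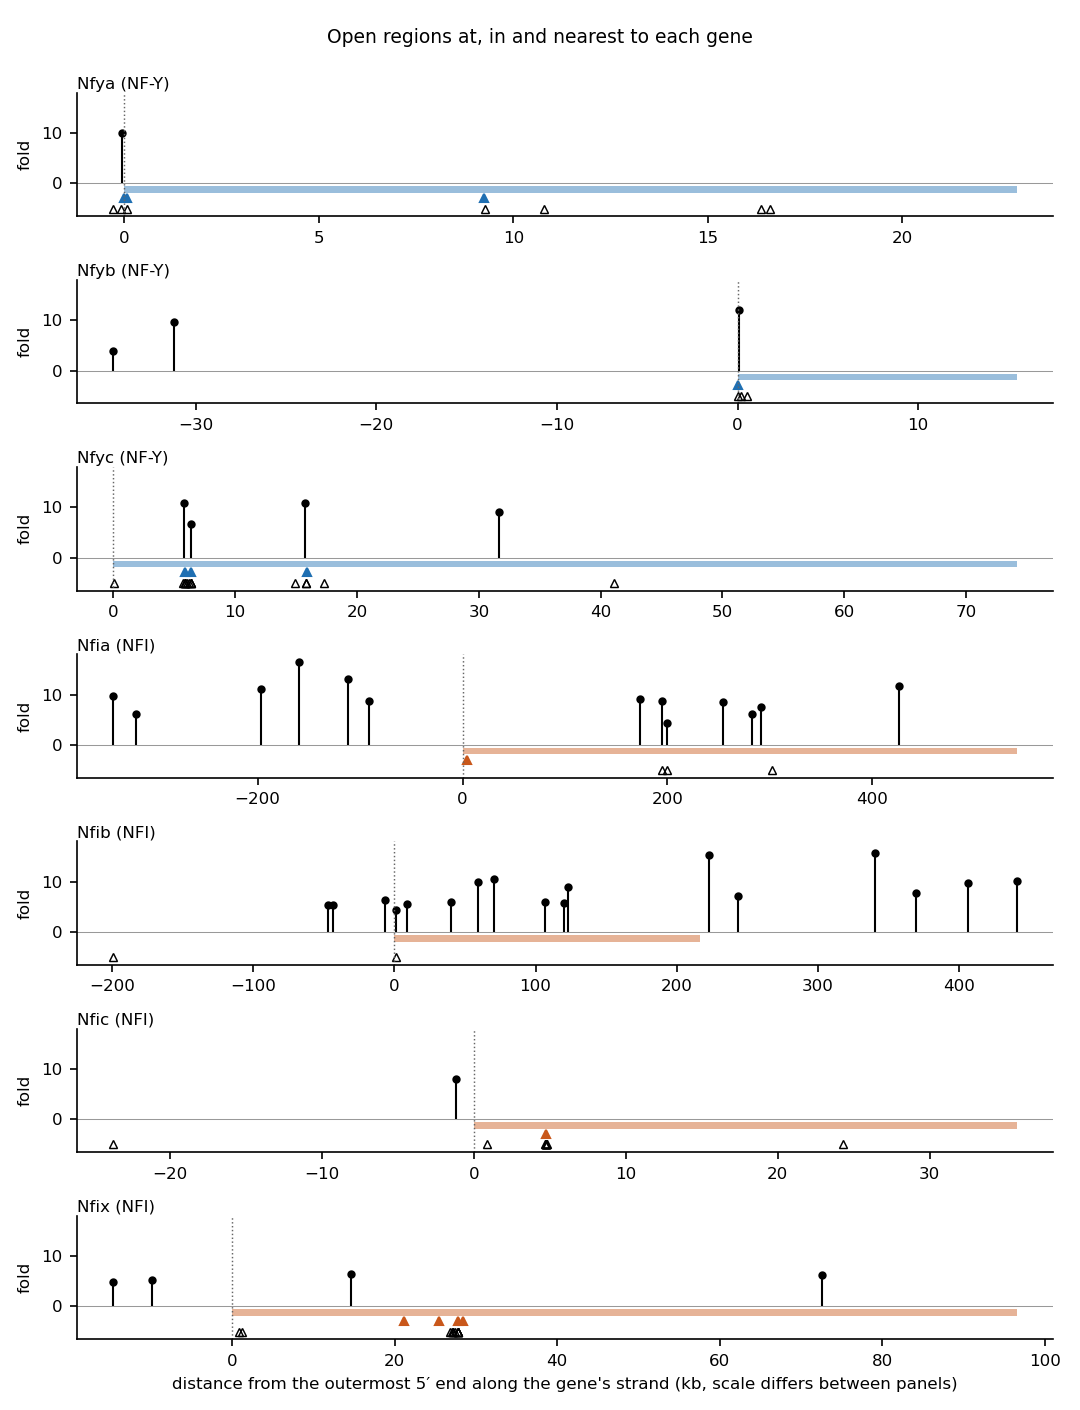
Open regions of each gene by distance from the outermost 5′ end (kb along the gene's strand, the scale differs between panels) with the fold over local background as height. The coloured bar is the gene, blue for NF-Y and orange for NFI, the dotted line its outermost 5′ end and filled triangles its RefSeq starts, with open triangles for GENCODE starts. Regions stand at 6 of the 7 filled triangles of NF-Y genes, the exception being start 3 of Nfya, and at 2 of 3 open triangles of Nfia, and other regions of Nfia and Nfib are spread over long distances on both sides.

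**Figure D3:**
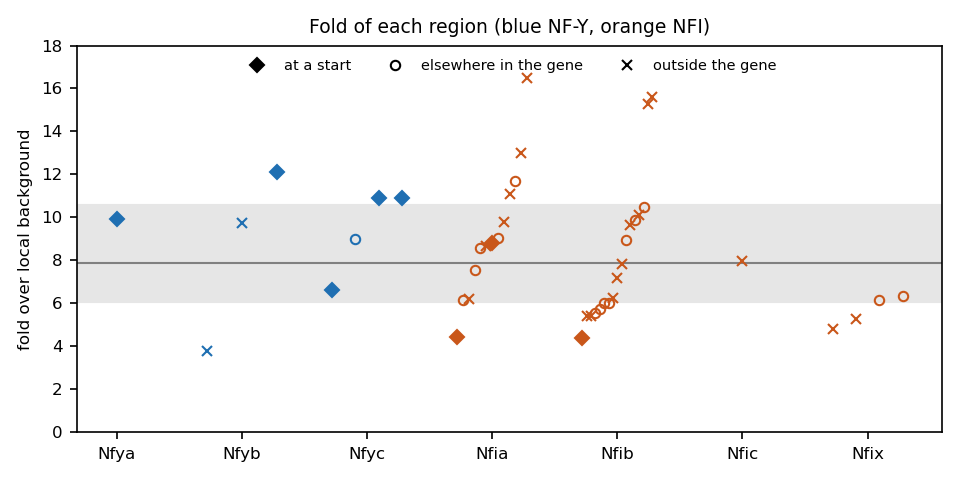
Fold over local background of each region of the 7 genes, filled diamonds at a start of either annotation, circles elsewhere in the gene and crosses outside it. The grey line and band give the median (7.90) and quartiles of regions at protein-coding 5′ ends. Start regions of NF-Y genes lie between 6.62 and 12.1, the NFI start regions at 4.37, 4.44 and 8.79, and the highest folds, up to 16.5, outside Nfia and Nfib.

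Taking the families side by side, NF-Y genes had 5 regions within 112.5 kb of gene (4.44 per 100 kb) and NFI genes 17 within 889.6 kb (1.91 per 100 kb). Over all protein-coding genes the figure was 1.60 per 100 kb, over those at least as long as Nfic 1.31, and over the 14915 shorter ones, whose range of length includes Nfya and Nfyb, 3.01. These counts place a region by its midpoint and so leave out the start region of Nfya, which overlaps that gene. By strongest summit or any overlap, NF-Y genes had 6 regions (5.33 per 100 kb) and NFI genes 17 as before, with no background given. Leaving out regions at starts, a comparison added after the data were seen, left 1 of 5 regions in NF-Y genes (0.889 per 100 kb) and 16 of 17 in NFI genes (1.8 per 100 kb, or 14 and 1.57 without those at GENCODE starts of Nfia). The order of the families turned, but it rests on a single NF-Y region, and with only regions of IDR score 1000 it did not turn (0.889 for NF-Y and 0.562 for NFI genes away from the starts of both annotations). Protein-coding genes as a whole had 1.06 regions per 100 kb away from RefSeq starts and outermost ends, and those at least as long as Nfic 1.04. By the same count Nfib alone had 3.23, Nfix 2.07, Nfyc 1.35 and Nfia 1.29, and the other 3 genes had none. The median fold was 10.9 in NF-Y genes (6.62 to 12.1, 4 of 5 at an IDR score of 1000) and 6.34 in NFI genes (4.37 to 11.7, 6 of 17 at that score). Of all regions, 45.1% had that score, 57.2% of those at protein-coding 5′ ends and 40.9% of the others. The medians compare mostly start regions with mostly other ones, and over the whole list the median fold was 7.90 at protein-coding 5′ ends and 6.87 elsewhere. The folds of the families overlapped. Counting only regions with an IDR score of 1000, NFI genes had 0.674 regions per 100 kb and NF-Y genes 3.55, compared with 0.704 over all protein-coding genes, 0.561 over those at least as long as Nfic and 1.39 over the shorter ones.

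The division by length held only in part. NF-Y genes were 15.5 to 74.1 kb long and NFI genes 35.7 to 541 kb, with Nfyc longer than Nfic, against a median of 17.5 kb for protein-coding genes. By RefSeq extents, a region lay within 39.4% of all protein-coding genes and within 64.5% of those at least as long as Nfic. By the same extents, 2 of 3 NF-Y genes and 3 of 4 NFI genes held one. Regions were placed by midpoint here, and that of the Nfya start region lies just upstream of the gene it overlaps. Among the long genes, the number of regions within the gene put Nfib at percentile 96.4, Nfia at 95.1, Nfyc at 85.3 and Nfix at 63.0, with Nfic at 0. Per 100 kb of gene, Nfyc stood at percentile 94.3 of these, Nfib at 85.5, Nfix at 66.5 and Nfia at 51.5. Nfia thus had many regions for a gene but a middling number for its length.

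Distal regions showed the widest range. Of all protein-coding genes, 40.3% were nearest to at least 1, with a median of 0 and 3 at percentile 90. NF-Y genes had 6, from 0 at Nfya and 2 at Nfyb to 4 at Nfyc, and NFI genes had 32, from 1 at Nfic and 3 at Nfix to 12 at Nfia and 16 at Nfib. Nfib stood at percentile 99.7 and Nfia at 99.2 of all protein-coding genes. The stretch of chromosome nearest to each 5′ end differed greatly, since no other protein-coding gene begins within 100 kb of that of Nfia or Nfib, whereas 11 do so around Nfic, 8 around Nfix, 7 around Nfya and 3 around each of Nfyb and Nfyc. The stretch was 798 kb for Nfia and 708 kb for Nfib, compared with 50.6 kb for the median gene. Per 100 kb of it, Nfia had 1.5 distal regions, Nfib 2.26, Nfic 2.23 and Nfix 4.59, which put them at percentiles 72.8, 79.3, 79.0 and 91.6, compared with 0.895 over all protein-coding genes. Among NF-Y genes, Nfyc had 7.46 (percentile 97.0, with the 3 regions over its starts counted), Nfyb 2.96 (percentile 84.4) and Nfya none. Without the 3 regions over its starts Nfyc had 1.86, below Nfib, and with RefSeq starts the values of the other 6 genes were the same. On that scale the families were not set apart. With genes of every type competing for a region, NF-Y genes were nearest to 3 and NFI genes to 11, and 12 of the 32 regions of NFI genes lay within 100 kb. Nearness to a 5′ end does not show which gene a region acts on.

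**Figure D4:**
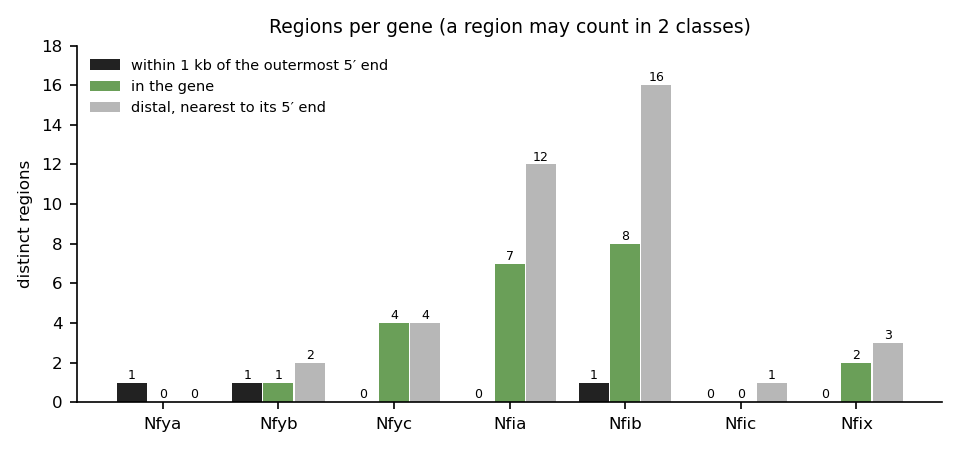
Number of distinct regions (vertical axis) of each gene within 1 kb of the outermost 5′ end (black), within the gene (green) and distal but nearest to its 5′ end (grey). A region can count in 2 classes, and 3 of the 4 distal regions of Nfyc cover its starts. Nfib (16) and Nfia (12) lead the distal counts, and Nfya has 1 region in all.

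**Figure D5:**
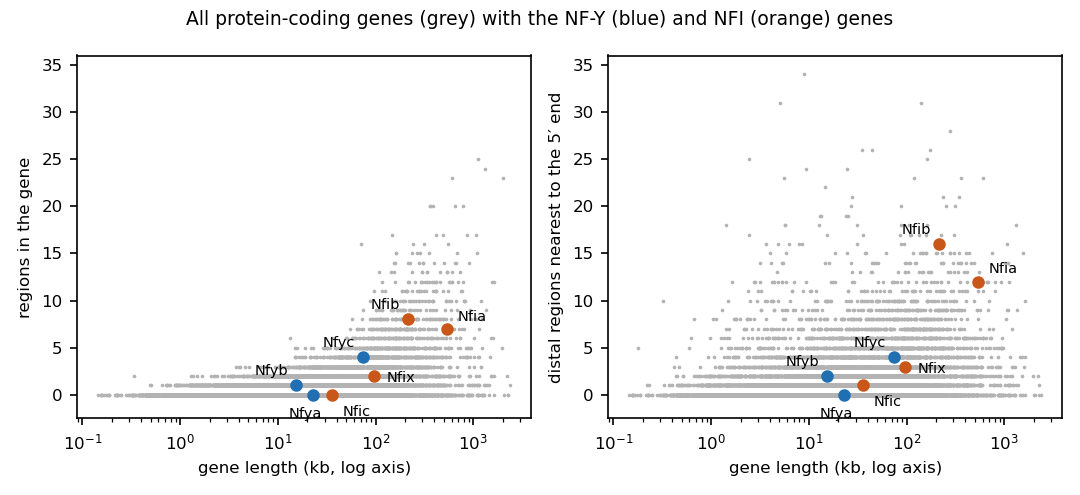
Gene length (kb, log axis) against regions within the gene (left) and distal regions nearest to its 5′ end (right) for 21440 protein-coding genes (grey points), with NF-Y genes in blue and NFI genes in orange. Nfib and Nfia lie in the upper range for distal regions, while Nfya and Nfic sit at or near 0 in both panels.

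Genes linked to either family were then described by whether a region lay at a start, as for the markers, with 41.4% of all protein-coding genes as the background. Of 13 NF-Y target genes, 12 had a region. They included the cell cycle genes Ccnb1, Ccnb2, Cdk1, Ccna2, Cdc25c, Top2a and Tk1, the sterol genes Hmgcs1, Fdps and Sqle, and Hspa5 and Pdia4, which encode endoplasmic reticulum chaperones. Folds ranged from 4.83 at Tk1 to 20.1 at Ccna2, with 17.0 at Hmgcs1, 15.2 at Cdc25c and 14.8 at Hspa5. Rrm2, a subunit gene of ribonucleotide reductase, had none at its outermost 5′ end or RefSeq start but had one at 2 of its 4 GENCODE starts. All 9 genes for partners and coactivators had one. Sp1, Sp3, Srebf2, Atf6, Usf1, Usf2, Ep300 and Kat2b had it at the outermost 5′ end. Srebf1, the sterol regulator, had none there but had one at a RefSeq start and at 1 of its 3 GENCODE starts. All 5 genes of histone-fold relatives of NF-YB and NF-YC, Chrac1, Pole3, Pole4, Dr1 and Drap1, also had a region at a start, with folds from 5.50 to 13.0.

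Of 5 NFI target genes, only Ezh2, which encodes a histone methyltransferase, had a region at its start, with a fold of 9.73. The milk protein genes Csn2 and Wap, the astrocyte gene Gfap and the glial gene Fabp7 had none, and these are best known from mammary gland and nervous tissue. Among 3 NFI partners, Ski and Sox9 had a region at a start, and Foxa1 had one at its GENCODE start only. Sox9 was the nearest gene to 23 distal regions, more than Nfib. With lists this short and without a test, the shares stand as counts only.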

How the data were processed

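Bulk ATAC-seq libraries of 4 mSGO samples were prepared by the authors with a Nextera kit and sequenced as 75 bp paired-end reads, which they aligned and used for peak calling with the ENCODE ATAC-seq pipeline. The submitters' processing notes name HOMER and GRCm39. However, in the deposited list a region ended beyond the GRCm39 chromosome on 8 of 21 chromosomes, and a region lay within 1 kb of 38.3% of GRCm38.p6 protein-coding 5′ ends but of 5.04% of GRCm39 ones, so coordinates were read as GRCm38.

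Per the file's format, the deposited list gives for each summit an IDR score, the fold (a ratio) of its signal over local background and a −log10 q-value, as set by the authors' peak caller. These values served to describe regions within the list, and the −log10 p-value, also given, was not used. Its 69545 lines were joined into 32011 distinct regions (median width 402 bp, median fold 7.11), each with the values of its strongest summit. No depth or precision per sample is known, and no value per sample was used.

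Genes and start windows came from RefSeq tables of GRCm38.p6. Strand came from the promoter table by gene ID for 17492 protein-coding genes and from GENCODE mouse release 39 by name for 3948, Nfib among them. Genes without a strand were left out of the 21887. The strands of both sources differed in 125 of 22110 genes. RefSeq windows matched 6 of the 7 genes. UTR annotation of GENCODE limited the longer printed stretches, after each window was found once in GRCm39. It did not limit the short sites of at most 30 bases. Annotated UTR covers all 250 bases upstream of Nfya starts 1 and 2 and of Nfyc start 2. It covers 203 of those upstream of Nfyb start 1. Starts of GENCODE protein-coding transcripts were set beside the regions by distance alone, in genes where the RefSeq windows found once in GRCm39 within 4 Mb of their GRCm38 position (97.5%) were spaced alike in both assemblies. In each such gene the common shift between the assemblies placed these starts beside the regions, and only distances are reported. Sequence of the regions, exon or intron position and protein sequences were not analysed here. Python 3.11.15 was used, with pandas 2.3.3, numpy 2.4.6 and matplotlib 3.10.9, and the counting functions were tested on simulated data.

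The genes and lists were chosen with earlier results of these data known. Some genes of the lists are not reported here, for a reason unrelated to their values, and do not enter the counts. Named genes are the 7 genes, the other genes of the lists, and for the gene of each family with most distal regions the 3 genes most like it. Named regions of a gene are the one at its 5′ end, the nearest to it and the 3 with the highest fold, with others added after their values were seen. Alternatives changed the distance, the set of regions, the point that places a region, the strand, competing genes and the motif window.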

Additional observations from a re-analysis of the deposited data

How the results depend on the processing

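No paired analysis was possible because the list holds no value per sample, and for the same reason no replicate could be left out. Of 77 values under other settings, 50 stayed within 1.5 times the value reported. The count of NF-Y genes with a region at the 5′ end stayed at 2 under every planned setting. That of NFI genes, 1, became 0 at 500 bp, with the 16006 regions of lowest q-value and with the 14422 regions of IDR score 1000, and 2 at 2 kb or with any overlap. It was also 0 with RefSeq start windows, which was fixed beforehand for Nfib, the gene counted, as it has no such window here, and 2 with GENCODE transcript starts (NF-Y 3), a setting chosen after the data were seen. Counting every line, NF-Y genes held 10 regions (8.89 per 100 kb) with 11 distal, and NFI genes 38 (4.27 per 100 kb) with 71 distal, since each summit has a line. The regions of lowest q-value left NFI genes 7 regions (0.787 per 100 kb) and 16 distal, and those of IDR score 1000 left 6 (0.674 per 100 kb) and 16 distal, whereas NF-Y genes kept 4 (3.55 per 100 kb) under both. With genes of every type competing, distal regions numbered 3 for NF-Y and 11 for NFI genes, and within 100 kb NFI genes had 12. Away from protein-coding starts, added after the data were seen, NF-Y genes had 1 region (0.889 per 100 kb) and 3 distal, and also 1 away from GENCODE starts. NFI arms in the windows of NFI genes numbered 4, and 2 upstream of the start alone. In the windows of NF-Y genes they numbered 8, and 7 upstream. Of these, 1 arm lies in the overlapping windows of Nfya starts 1 and 2 and was counted in each. A protein-coding window held a mean of 0.686 such arms, and 0.591 upstream. At 500 bp, Nfib had no start region and so no fold. The other settings chosen after the data were seen were RefSeq starts, which gave 3 NF-Y genes, and GENCODE lengths, which gave 4.42 and 1.84 regions per 100 kb. For the latter only the length changed, and the regions stayed those within the RefSeq extents. The identity of the proteins to each other was planned and not analysed here. Depth is unknown, so a start without a region may lie under the limit of detection.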

Other observations

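The genes most like Nfyc in length, regions within the gene and distal regions (Euclidean distance over log10 length and log2 of 1 plus each count, among 21440 genes) were Arhgap25 at a distance of 0.0033, Borcs5 at 0.015 and Gnb1l at 0.029. Each held 4 regions and was nearest to 4 distal ones, as was Nfyc. Those most like Nfib were Mbnl1 at 0.16, which held 8 regions in 157 kb with 17 distal, Mid1 at 0.24 with 7 and 15, and Ntrk3 at 0.28 with 8 and 15.

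The gene lengths differ between annotations. GENCODE on GRCm39 gives Nfib 416 kb, Nfia 346 kb and Nfic 59.5 kb, compared with 217, 541 and 35.7 kb in the RefSeq table of GRCm38.p6, while the NF-Y genes differ by little (23.2, 15.7 and 74.1 kb). The outermost 5′ ends of Nfia, Nfic and Nfix lie 3.88, 4.75 and 21.2 kb from their nearest RefSeq start.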
